A study of Mus musculus with 12 samples.

Results

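The genes described here encode the proteins of the mitochondrial ribosome and carry Mrpl or Mrps symbols. They were taken by symbol alone, as every gene in the count tables named Mrpl or Mrps followed by digits and at most 1 letter, which gave 76 of 23420 genes (47 Mrpl and 29 Mrps symbols). All 76 had enough counts to be tested in both mouse lines, and all 76 matched a gene of the mouse annotation (GENCODE, build GRCm38, the same assembly as mm10). RNA sequencing of polyA RNA was performed on whole embryos at embryonic day 12.5, with 1 library from each of 12 embryos in 4 groups of 3. In the Carm1 line, Carm1 KO/KO embryos, homozygous for the null allele Carm1tm1Mtb, were set against wild-type embryos, and the strain label of both groups is C57BL/6. In the Pax3 line, Pax3 Sp2H/Sp2H embryos, homozygous for the Splotch allele Pax3Sp2H, were set against wild-type embryos, and the strain label of both groups is mixed, from a closed colony. Both alleles are constitutive, so every tissue of the embryo carried them. Embryos came from intercrosses of heterozygous mice, and the labels do not say which mutant and wild-type embryos were littermates. CARM1 is an arginine methyltransferase that acts as a transcriptional coactivator, and PAX3 is a transcription factor of the neural tube, neural crest and muscle precursors. The study set the lines side by side to ask how far loss of CARM1 resembles loss of PAX3.

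Mitochondria translate the few messenger RNAs of their own genome on a ribosome of their own. The ribosomal RNAs of this ribosome are made inside the mitochondrion, whereas all of its proteins are encoded in the nucleus, made in the cytosol and imported. The large subunit joins amino acids and the small subunit reads the messenger RNA, and all products of this ribosome in mammals are membrane subunits of the oxidative phosphorylation complexes. Many mitochondrial ribosomal proteins have a counterpart in bacterial ribosomes, and the others are found only in mitochondria. By the unified nomenclature, names such as uL14m and bL27m mark proteins with a bacterial counterpart and names such as mL54 mark mitochondria-specific ones. Of the 76 genes, 49 encode proteins of the large subunit and 26 proteins of the small subunit, 46 with a bacterial counterpart and 29 mitochondria-specific. The symbols do not always follow the subunit, since the products of Mrps30 (mL65) and Mrps18a (mL66) sit in the large subunit. Mrps36 (KGD4) encodes a part of the 2-oxoglutarate dehydrogenase complex rather than of the ribosome, but was kept because the symbol fits.

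Total counts were between 17183344 and 23518692 per library, and the Mrp genes took 0.2445% to 0.3022% of them. Libraries of 1 group correlated at r of 0.9894 to 0.9947 over log2 CPM, and no pair held identical values. Carm1 itself had 69.3 to 76.2 CPM (counts scaled to the size of each library with TMM factors) in Carm1 KO/KO libraries and 137 to 151 in their wild types. Pax3 had 18.1 to 22.4 CPM in Pax3 Sp2H/Sp2H libraries and 24.96 to 30.9 in their wild types. Both targeted genes therefore moved the way the labels say. Counts of Y-linked genes were above 100 in 4 libraries, 1 Carm1 wild type, 1 Pax3 Sp2H/Sp2H and 2 Pax3 wild types, so the sexes were not balanced between groups.

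Promoter sequences are shown for the Mrp genes with the largest changes among those called higher in the Pax3 line, because a pair of them shares a single short stretch. Mrps24 and Mrpl54 belong there by size of change but had no usable window and are not shown. Mrps2 and Mrps27 were added as the 2 genes called lower, though other Mrp genes that are not shown changed more. Sequences come from a RefSeq table for GRCm38.p6 that gives 250 bases before and 50 bases after a transcript start. There 61 of the 76 genes had a start within 500 bases of the start annotated by GENCODE, and the other 15 were left out of all statements on promoters. Each sequence runs 5′ to 3′ on the strand of the gene up to the base before the start, for at most 100 bases or to the start of a gene that runs the other way. Capitals mark a match to any of 4 motifs searched on both strands. The motif of ETS factors was taken as CCGGAAG. That of YY1 was AAGATGGCG. The E-box was CACGTG, and the fourth motif was the palindrome of NRF1. None of these contains another.
Mrpl14, chr17:45686249-45686348, plus strand: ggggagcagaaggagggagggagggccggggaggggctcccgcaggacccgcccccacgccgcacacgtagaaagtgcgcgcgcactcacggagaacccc
Mrps14, chr1:160195115-160195214, plus strand: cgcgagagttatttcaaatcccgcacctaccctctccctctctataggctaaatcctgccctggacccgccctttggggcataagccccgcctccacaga
Mrps16, chr14:20393635-20393734, minus strand: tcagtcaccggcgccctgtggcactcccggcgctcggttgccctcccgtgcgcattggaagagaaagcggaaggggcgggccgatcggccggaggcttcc
Mrps11, chr7:78783090-78783130, plus strand: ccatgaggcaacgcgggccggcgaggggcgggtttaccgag
Mrpl46, chr7:78783090-78783130, minus strand: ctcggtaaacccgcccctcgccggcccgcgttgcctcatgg
Mrpl27, chr11:94653744-94653790, plus strand: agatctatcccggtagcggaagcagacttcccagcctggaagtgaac
Mrps2, chr2:28467966-28468065, plus strand: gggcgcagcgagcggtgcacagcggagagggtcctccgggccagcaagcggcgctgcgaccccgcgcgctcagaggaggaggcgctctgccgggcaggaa
Mrps27, chr13:99344686-99344785, plus strand: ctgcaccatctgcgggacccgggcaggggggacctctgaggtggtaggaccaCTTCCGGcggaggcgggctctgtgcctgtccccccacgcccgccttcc

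The Mrps11 and Mrpl46 sequences are the same 41 bases read from either strand. These genes lie head to head on chromosome 7 with starts 42 bases apart, Mrps11 running along the plus strand and Mrpl46 along the minus strand. Of the 8 stretches, only that of Mrps27 held a motif, an ETS match on the minus strand. Outside the printed bases, the windows also held an ETS match for Mrpl27 and a YY1 match each for Mrps11 and Mrps27. Over the whole 300-base windows, the ETS motif was present for 21 of 61 Mrp genes (34.4%), against 13.5% of the 12640 protein-coding genes of the tables with a window. The YY1 motif was present for 5 Mrp genes (8.2% against 2.33% of all), the NRF1 motif for 3 (4.92% against 1.65%) and the E-box for 4 (6.56% against 8.9%). ETS factors, YY1 and NRF1 are known from promoters of housekeeping and mitochondrial genes, and 27 Mrp genes (44.3%) held at least 1 of these 3, against 16.7% of all genes. Cytosolic ribosomal protein genes had the ETS motif at a like share, 37.3% of 51, and nuclear genes of oxidative phosphorylation at 26.3% of 57. A match is a string of letters and not a binding site.

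In the Pax3 line, many Mrp mRNAs were higher in mutant embryos. Of the 76 genes, 38 (50%) were higher and 2 (2.63%) were lower in Pax3 Sp2H/Sp2H than in wild type (edgeR quasi-likelihood test, FDR adjusted P below 0.05 over all genes tested). Among the 15724 genes tested in this line, 14.0% were higher and 10.5% were lower. The median log2 fold change of the Mrp genes, mutant over wild type, was 0.206 (quartiles 0.0715 and 0.361), against -0.00255 for all genes. The count of genes called higher fell to 25 without Sp2H/Sp2H replicate 1, where 10.1% of all genes were higher. It fell to 19 or 17 when transcript or coding length and GC were corrected for, against 8.45% and 9.48% of all genes. The medians were 0.0742 and 0.0922 in these corrected fits. In 48 Mrp genes (63.2%) all 3 mutant libraries lay above all 3 wild-type libraries, against 20.7% of all genes, and in 4 (5.26%) they lay below, against 18.9%. Of the 38 genes called higher, 37 were without overlap between the groups. Changes were small for single genes, with log2 fold changes of 0.19 to 0.84 for the 38 genes. These are whole embryos, in which more RNA per cell and more cells of a type rich in an mRNA cannot be told apart.

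**Figure D1:**
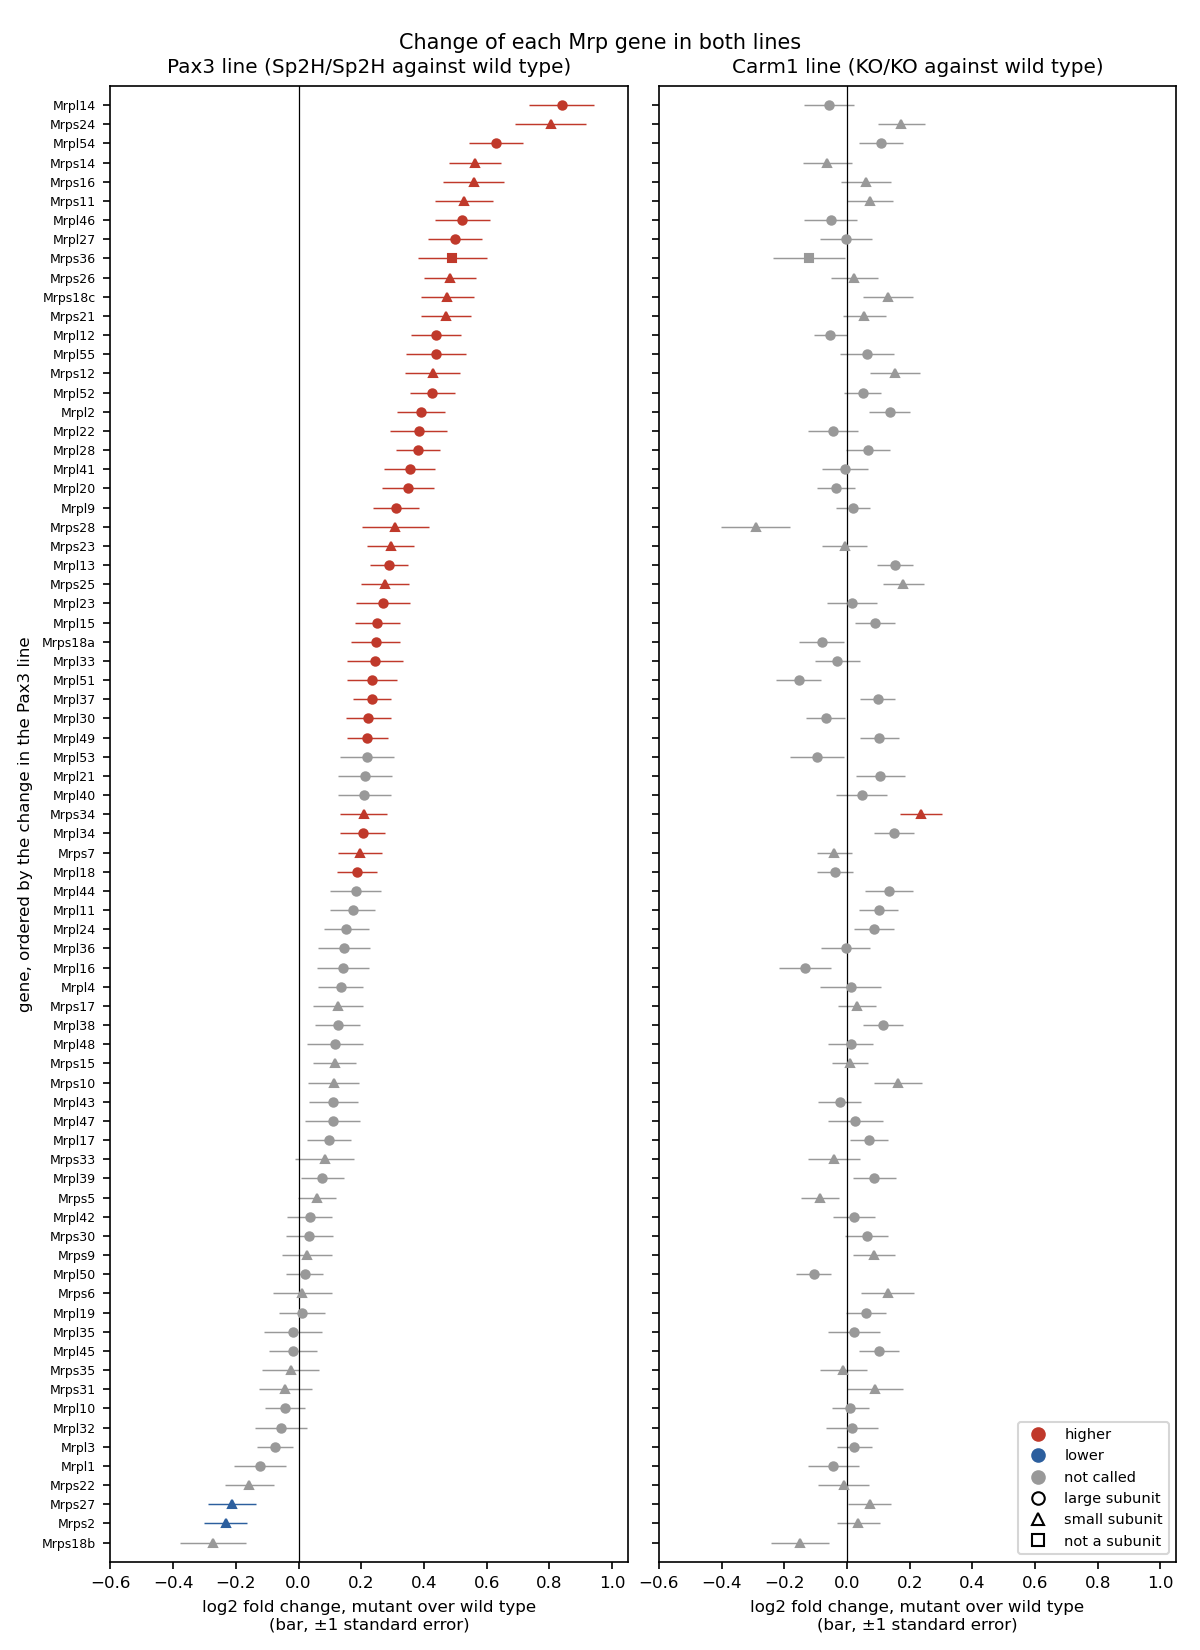
Log2 fold change (mutant over wild type, x axis) of each of the 76 Mrp genes (y axis, ordered by the Pax3 line) in the Pax3 line (left) and the Carm1 line (right), with bars of 1 standard error, colours for the call at an FDR adjusted P of 0.05 and symbols for the subunit. In the Pax3 line 38 genes are marked higher and 2 lower, and in the Carm1 line 1 is marked higher.

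The largest change was in Mrpl14 (chr17:45686322-45698495), which encodes uL14m, a large subunit protein at the face that meets the small subunit. Mrpl14 had 36.9, 33.3 and 39.6 CPM in the mutant libraries and 16.4, 22.8 and 22.3 in the wild types, a log2 fold change of 0.84 ± 0.10 (SE, adjusted P = 4.82e-06, edgeR). The groups were well apart, and wild-type replicate 1 was the lowest library. Corrected for transcript length and GC, Mrpl14 was at 0.43, still called but below Mrps14 (0.71), Mrps16 (0.62) and Mrps24 (0.56) in the same fit. With coding length in place of transcript length Mrpl14 was at 0.48, below Mrps24 (0.58) and Mrps14 (0.51) and above Mrps16 (0.42). Mrps24 (chr11:5703983-5715680) encodes uS3m of the small subunit, whose bacterial counterpart lines the channel through which mRNA enters. Mrps24 had 33.8, 33.1 and 34.2 CPM in mutants and 14.98, 23.2 and 19.9 in wild types, a log2 fold change of 0.80 ± 0.11 (adjusted P = 4.45e-05, edgeR). The mutant libraries lay close together, and the wild types were spread more widely below them.

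Mrpl54 (chr10:81264713-81266934) encodes mL54, a mitochondria-specific protein of the large subunit. Mrpl54 had 36.0, 39.3 and 40.4 CPM in mutants and 22.6, 24.9 and 27.2 in wild types, a log2 fold change of 0.63 ± 0.09 (adjusted P = 4.45e-06, edgeR). Groups did not overlap, but once the fit corrected for transcript length and GC the log2 fold change was 0.19 and no longer called (adjusted P = 0.0918, edgeR). With coding length in place of transcript length it was 0.23 and called (adjusted P = 0.0268, edgeR). Mrps14 (chr1:160195215-160202170) encodes uS14m of the small subunit head. Mrps14 had 30.5, 30.6 and 31.3 CPM in mutants and 19.1, 21.5 and 21.9 in wild types, a log2 fold change of 0.56 ± 0.08 (adjusted P = 1.45e-05, edgeR). Its log2 fold change stayed between 0.50 and 0.71 in the 17 alternative ways of processing tried, offsets for length and GC among them.

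Mrps11 (chr7:78783119-78792989) and Mrpl46 (chr7:78775236-78783531) are the pair with the shared stretch of promoter. Mrps11 encodes uS11m, a small subunit protein near the mRNA exit, and had 30.3, 30.7 and 33.3 CPM in mutants and 18.4, 23.9 and 23.2 in wild types. Mrpl46 encodes mL46, a mitochondria-specific large subunit protein, and had 30.4, 27.95 and 27.9 CPM in mutants and 18.0, 20.2 and 21.9 in wild types. The log2 fold changes of this pair were alike, 0.53 ± 0.09 (adjusted P = 0.000123) and 0.52 ± 0.09 (adjusted P = 7.35e-05, edgeR), and neither gene overlapped between groups. Corrected for transcript length and GC they were at 0.29 and 0.35, both still called. A further non-coding transcript annotated for Mrpl46 runs over the first exon of Mrps11, and the strand setting used in counting is not given in the sources used here, so some reads of the pair could be shared.

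Mrps16 (chr14:20389304-20393634), for the small subunit protein bS16m, had 32.8, 27.9 and 30.3 CPM in mutants and 17.1, 22.1 and 22.6 in wild types. Its log2 fold change was 0.56 ± 0.10 (adjusted P = 0.000147, edgeR). Mrpl27 (chr11:94653767-94660089) encodes bL27m, whose bacterial counterpart reaches towards the site where peptide bonds form. Mrpl27 had 40.1, 33.6 and 34.5 CPM in mutants and 23.96, 27.04 and 25.7 in wild types, a log2 fold change of 0.50 ± 0.09 (adjusted P = 0.00011, edgeR), and it shares 75 exonic bases with Eme1 on the other strand. In both genes every mutant library was above every wild type. Corrected for transcript length and GC, Mrpl27 was at 0.27. The remaining 30 genes called higher had log2 fold changes of 0.19 to 0.49, with Mrps36, the dehydrogenase gene, at the top of them (0.49 ± 0.11, adjusted P = 0.00173, edgeR).

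Only Mrps2 and Mrps27 were called lower in Pax3 mutants, and both encode small subunit proteins. Mrps2 (chr2:28468066-28471178), for uS2m, had 43.9, 46.0 and 43.0 CPM in mutants and 52.8, 49.4 and 53.8 in wild types, a log2 fold change of -0.23 ± 0.07 (adjusted P = 0.0139, edgeR). Mrps27 (chr13:99344786-99415562), for mS27, a mitochondria-specific protein with pentatricopeptide repeats, had 33.6, 32.7 and 31.2 CPM in mutants and 36.3, 38.5 and 38.3 in wild types. Its log2 fold change was -0.21 ± 0.08 (adjusted P = 0.0415, edgeR). Neither gene overlapped between groups, and Mrps27 shares exonic bases with an antisense transcript in the tables. Mrps27 lost its call without any single Pax3 Sp2H/Sp2H library without wild-type replicate 2 or 3 and without a filter on low counts, with values between -0.26 and -0.19 over all alternatives (highest adjusted P 0.144). Mrps2 lost its call without Sp2H/Sp2H replicate 1 or replicate 3 (highest adjusted P 0.0677).

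**Figure D2:**
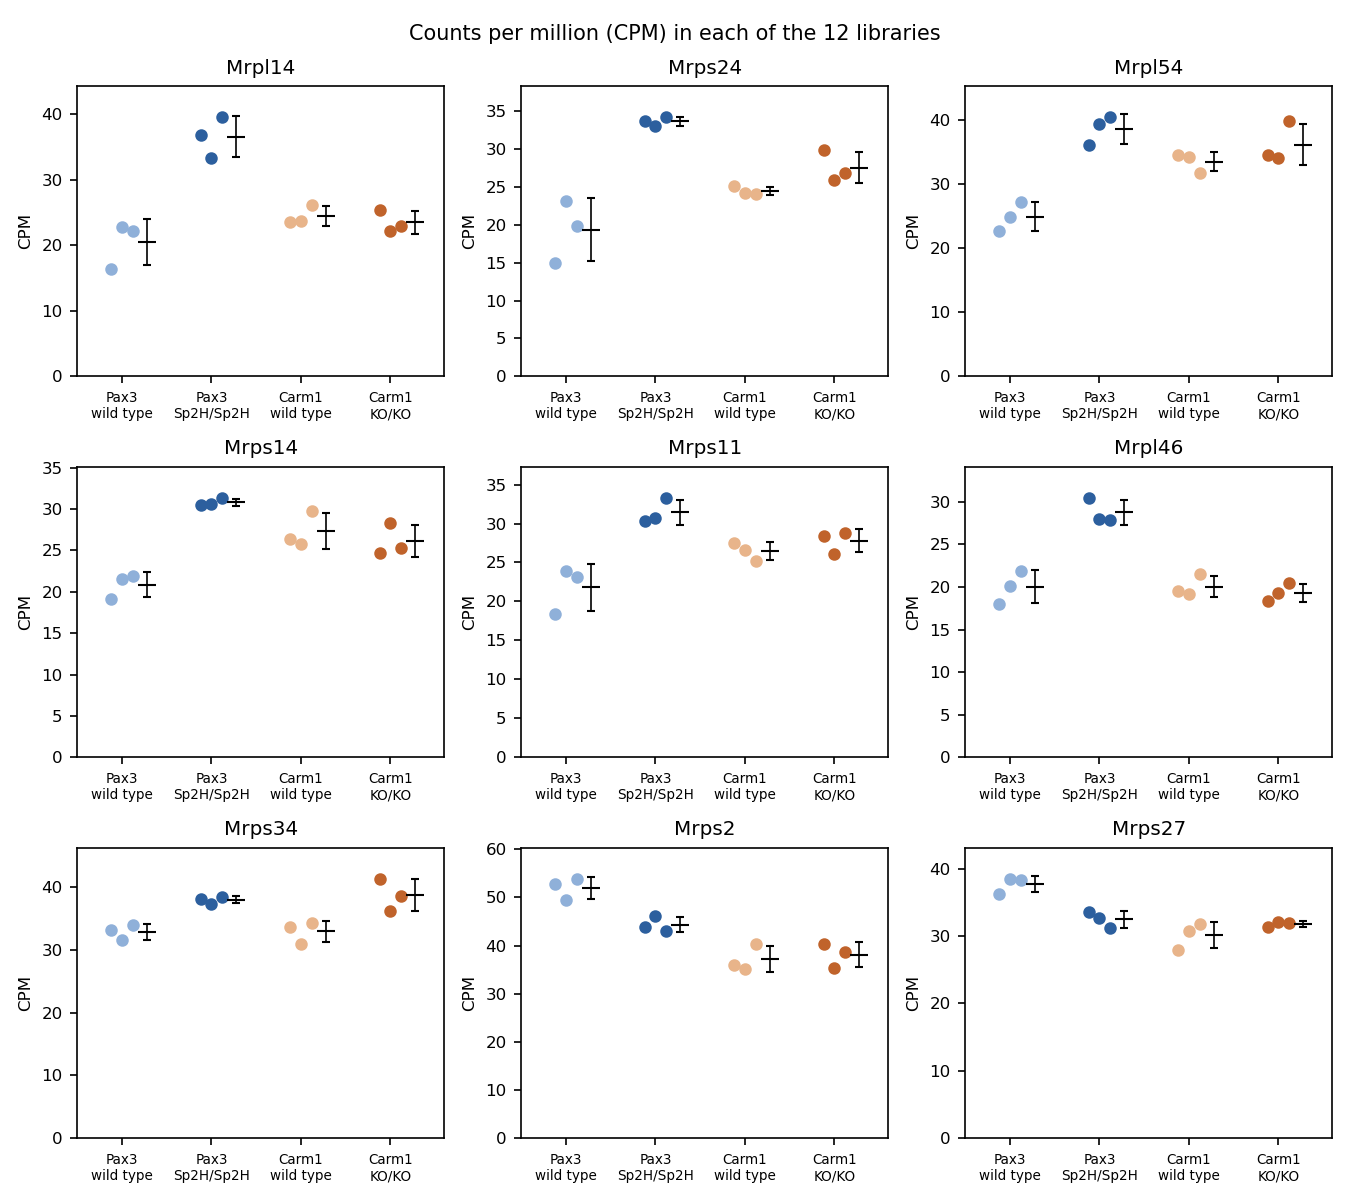
CPM (y axis, from 0) of 9 Mrp genes in each of the 12 libraries by group (x axis), with the group mean and SD (n = 3) beside the points. Mrpl14, Mrps24, Mrpl54, Mrps14, Mrps11 and Mrpl46 are higher in all Pax3 Sp2H/Sp2H libraries than in their wild types, Mrps2 and Mrps27 are lower, and Mrps34 is higher in the mutants of both lines.

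Genes of both subunits were among those called. Among all genes tested in the Pax3 line, 14.0% were higher and 10.5% lower. For the large subunit, 24 of 49 genes were higher and 0 lower in the Pax3 line by edgeR, with a median log2 fold change of 0.209. With either kind of length and GC offset, Mrpl34 of the large subunit was called lower. The 3 Mrp genes lower at an unadjusted P below 0.05, Mrps2, Mrps27 and Mrps18b, all encode small subunit proteins, and DESeq2 called 2 Mrp genes lower. For the small subunit, 13 of 26 were higher and 2 lower, with a median of 0.161. Genes with a bacterial counterpart had 25 of 46 higher and 1 lower, and mitochondria-specific genes 12 of 29 higher and 1 lower, with medians of 0.208 and 0.182. Within the small subunit, the 16 genes with a bacterial counterpart had a median of 0.252 with 9 higher, and the 10 mitochondria-specific genes a median of 0.0289 with 4 higher. The latter held 5 genes with positive and 5 with negative log2 fold changes, among them Mrps26 (mS26) at 0.48 and Mrps18b (mS40) at -0.27 (adjusted P = 0.0591, edgeR). These differences between groups of genes were not tested. In the basic GENCODE set, which leaves out the transcript that links Mrpl46 to Mrps11, 25 Mrp genes share exonic bases with another gene. Of these 12 were higher, and of the 51 others 26, with medians of 0.196 and 0.207.

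The summed level of the 76 genes was 2931 to 3031 CPM in Pax3 Sp2H/Sp2H libraries and 2446 to 2714 CPM in their wild types, without overlap. Wild-type replicate 1 had the lowest sum and was the lowest of the 6 libraries for 53 of the 76 genes. Without this library 29 genes were called higher, against 10.4% of all genes in that fit, and the median log2 fold change was 0.141. Without Sp2H/Sp2H replicate 1, the library with the highest sum, 25 genes were called higher, against 10.1% of all genes, and the median was 0.183. A count of 25 genes was called higher in every fit that left out 1 library. The 3 libraries with Y-linked counts in this line were 1 mutant and 2 wild types. With a term for them 43 genes were higher and 3 lower, against 15.3% and 12.2% of all genes.

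**Figure D3:**
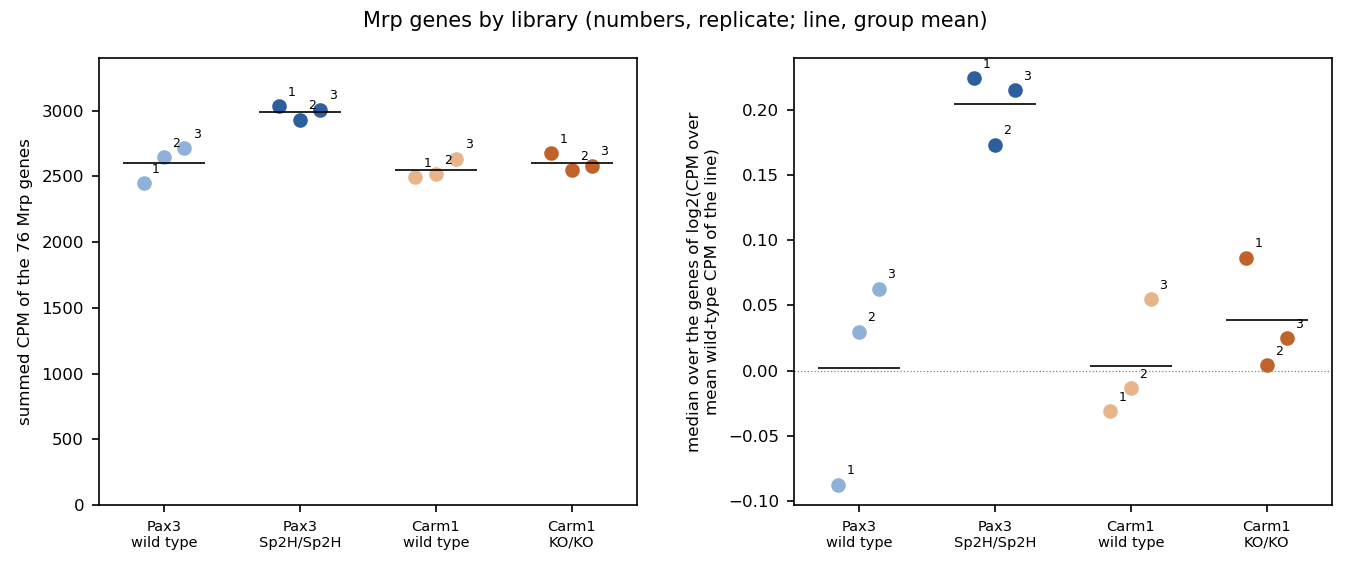
Summed CPM of the 76 Mrp genes (left, y axis from 0) and the median over these genes of the log2 ratio of CPM to the wild-type mean of the line (right), for each library by group, with replicate numbers beside the points and lines at group means, scaled within each line. The 3 Pax3 Sp2H/Sp2H libraries (2931 to 3031 CPM) lie above the 9 others (2446 to 2714 CPM), and Pax3 wild-type replicate 1 is the lowest.

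Short transcripts were higher in Pax3 mutants across the whole transcriptome, and Mrp transcripts are short. The median annotated transcript length was 1224.5 nucleotides (nt) for the Mrp genes (405 to 7300 nt) and 2745 nt for all genes tested in the Pax3 line. Ordered by transcript length into 4 equal parts, all genes had median log2 fold changes of 0.167, 0.0268, -0.0415 and -0.0954 from the shortest to the longest, with 30.3%, 13.7%, 7.33% and 4.59% called higher. The shortest part, up to 1742 nt, held 52 Mrp genes, of which 30 were higher, with a median of 0.229. The next parts held 10, 7 and 7 Mrp genes with medians of 0.0477, 0.109 and 0.0963, and in these 4, 2 and 2 were higher. Mrp medians were above those of all genes in each of the 4 parts, and the parts with 10 or fewer Mrp genes give little precision. Across the 76 genes, which are not independent replicates, Spearman's rho of log2 fold change with transcript length was -0.433 and with GC content 0.42. The 4 genes called higher in the 2 parts with the longest transcripts were Mrps14, Mrps25, Mrps26 and Mrpl51. Their coding lengths were 384, 513, 600 and 384 nt, against a median of 1362 nt for all genes tested. Their place among long transcripts therefore depends on the annotation.

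The counts were therefore fitted again with offsets that remove the relation of each library to transcript length and GC content. With these offsets 19 Mrp genes were higher in the Pax3 line, against 8.45% of all genes in the same fit, and 6 were lower, near the 6.98% of all genes. The median log2 fold change of the Mrp genes was 0.0742. With offsets for coding length in place of transcript length, an alternative added after the data were seen, 17 were higher and 6 lower, against 9.48% and 8.02% of all genes, with a median of 0.0922. The same 14 genes were higher as reported and with both kinds of offset, namely Mrpl9, Mrpl12, Mrpl13, Mrpl14, Mrpl15, Mrpl27, Mrpl46, Mrps11, Mrps14, Mrps16, Mrps18c, Mrps24, Mrps25 and Mrps26. Mrp genes lower with transcript-length offsets were Mrpl34, Mrps2, Mrps6, Mrps18b, Mrps22 and Mrps27. Of these Mrpl34 (bL34m) turned direction, since it was among the 38 called higher as reported (0.20, adjusted P = 0.0396, edgeR) and was called lower with both kinds of offset. RNA integrity of single libraries is not given in the sources used here beyond a floor that all met, and its part in the relation to length was not tested.

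**Figure D4:**
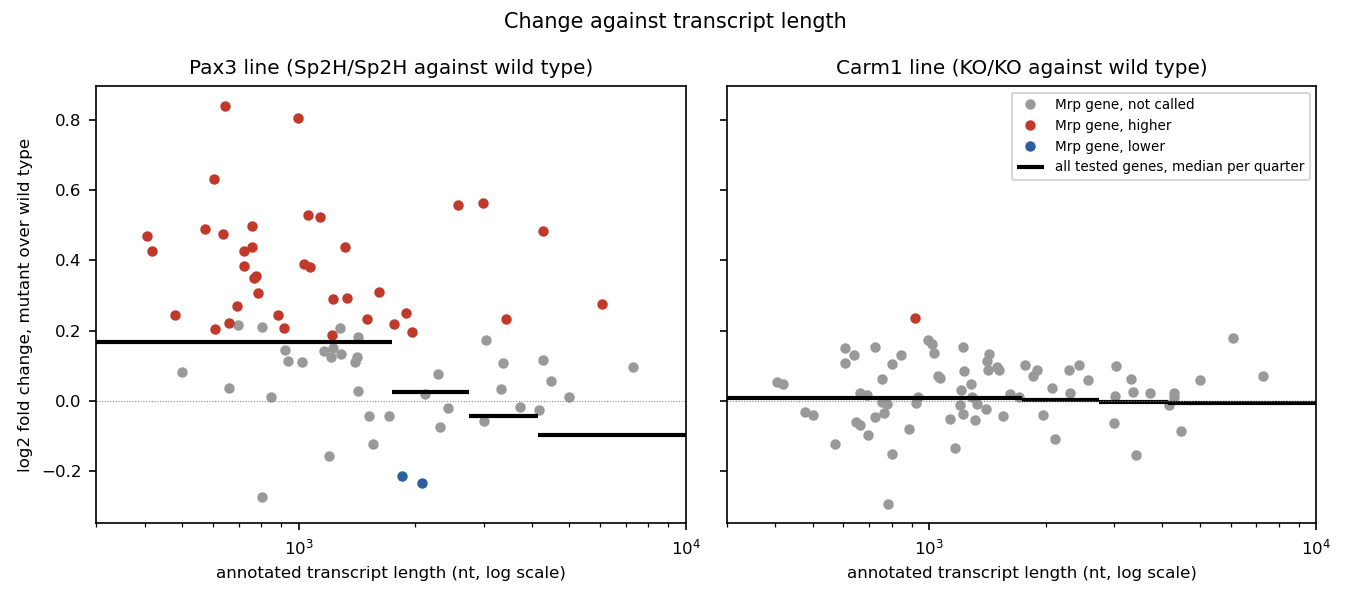
Log2 fold change (mutant over wild type, y axis) of the 76 Mrp genes against annotated transcript length (nt, log x axis) in the Pax3 line (left) and the Carm1 line (right), coloured by call, with black bars at the medians of all tested genes in 4 equal parts by length. In the Pax3 line the bars fall from 0.167 for the shortest to -0.0954 for the longest transcripts, and in the Carm1 line from 0.00926 to -0.00414.

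In the Carm1 line few Mrp genes differed between mutant and wild type. Of the 76 genes, 1 (1.32%) was higher and 0 were lower in Carm1 KO/KO, against 5.49% higher and 7.83% lower of the 15811 genes tested (edgeR quasi-likelihood test). At an unadjusted P below 0.05, 7 Mrp genes were higher and 2 lower, and DESeq2 called 0 in either direction. The median log2 fold change was 0.0237 (quartiles -0.0351 and 0.0886), with 48 positive and 28 negative values, against 0.00136 for all genes. In 9 Mrp genes (11.8%) all mutant libraries lay above all wild types, against 14.2% of all genes, and in 2 (2.63%) below, against 15.7%. Summed levels overlapped, at 2545 to 2677 CPM in mutants and 2491 to 2633 in wild types. By subunit, the medians were 0.0223 for the large and 0.0458 for the small subunit. Spearman's rho of log2 fold change with transcript length was 0.0699 across the 76 genes.

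The gene called higher was Mrps34 (chr17:24895116-24897502), which encodes mS34, a mitochondria-specific protein that small subunit stability depends on. Mrps34 had 41.3, 36.2 and 38.7 CPM in Carm1 KO/KO libraries and 33.6, 31.0 and 34.2 in wild types, a log2 fold change of 0.24 ± 0.07 (adjusted P = 0.0166, edgeR). The groups did not overlap, yet the call was lost by DESeq2 and without Carm1 KO/KO replicate 1 or 3 or wild-type replicate 2 (highest adjusted P 0.139). Mrps34 was also called higher in the Pax3 line, with 38.04, 37.3 and 38.4 CPM in mutants and 33.1, 31.5 and 33.9 in wild types (log2 fold change 0.21 ± 0.08, adjusted P = 0.0455, edgeR). There the call was lost by DESeq2 (adjusted P = 0.0548), without any single Sp2H/Sp2H library and without wild-type replicate 1 or 2, and the sign turned with offsets for transcript length and GC, to -0.17. Mrps34 was the single Mrp gene called by edgeR in both lines, and DESeq2 called it in neither. The next in the Carm1 line by P were Mrps25 (mS25, 0.18, adjusted P = 0.066), Mrps28 (bS1m, -0.29, adjusted P = 0.0745) and Mrpl13 (uL13m, 0.15, adjusted P = 0.0782, edgeR), none of them called. Offsets for transcript length and GC gave 3 Mrp genes higher and 1 lower in the Carm1 line, below the 12.4% and 8.25% of all genes in that fit.

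The change in the Carm1 line was compared with that in the Pax3 line directly, as an interaction in a single fit of all 12 libraries. For 24 Mrp genes the log2 fold change was smaller in the Carm1 line, against 10.5% of the 16292 genes tested, and for 2 it was larger, against 8.65%. All 24 were among the 38 genes called higher in the Pax3 line, and the 2 were Mrps2 and Mrps27, the genes called lower there. The largest difference in this fit was in Mrpl14, whose log2 fold change was lower by 0.89 ± 0.14 in the Carm1 line (interaction -0.89, adjusted P = 2.73e-05, edgeR). Carm1 KO/KO libraries had 25.5, 22.1 and 22.9 CPM of Mrpl14 and their wild types 23.5, 23.7 and 26.2, which overlap. Mrps14 (-0.61 ± 0.12, adjusted P = 0.000263), Mrps24 (-0.62 ± 0.14, adjusted P = 0.00188) and Mrpl46 (-0.56 ± 0.12, adjusted P = 0.00151, edgeR) were also called. Corrected for transcript length and GC, the interaction of Mrpl14 was -0.52, smaller in size than that of Mrps14 (-0.72). Mrps24 was then at -0.37 and Mrpl46 at -0.38, and all of these were still called. With coding-length offsets the interaction of Mrpl14 was -0.56 and that of Mrps14 -0.54. Without offsets Mrps28 was called too (-0.59 ± 0.16, adjusted P = 0.00951, edgeR). Its log2 fold change was 0.31 in the Pax3 line, where it was called, and -0.29 in the Carm1 line, where it was not. The Mrps28 interaction lost its call with transcript-length and GC offsets (-0.32, adjusted P = 0.138, edgeR). With coding-length offsets it was called (-0.41, adjusted P = 0.0463, edgeR). Log2 fold changes were positive in both lines for 40 genes, in the Pax3 line alone for 24, in the Carm1 line alone for 8 and negative in both for 4. With offsets for transcript length and GC, 8 log2 fold changes were smaller and 6 larger in the Carm1 line, both near the 7.60% and 9.50% of all genes in that fit. With coding length in place of transcript length 11 were smaller and 6 larger, against 7.49% and 9.43% of all genes. The lines differ in strain and colony as well as in the mutated gene, and these cannot be told apart here.

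**Figure D5:**
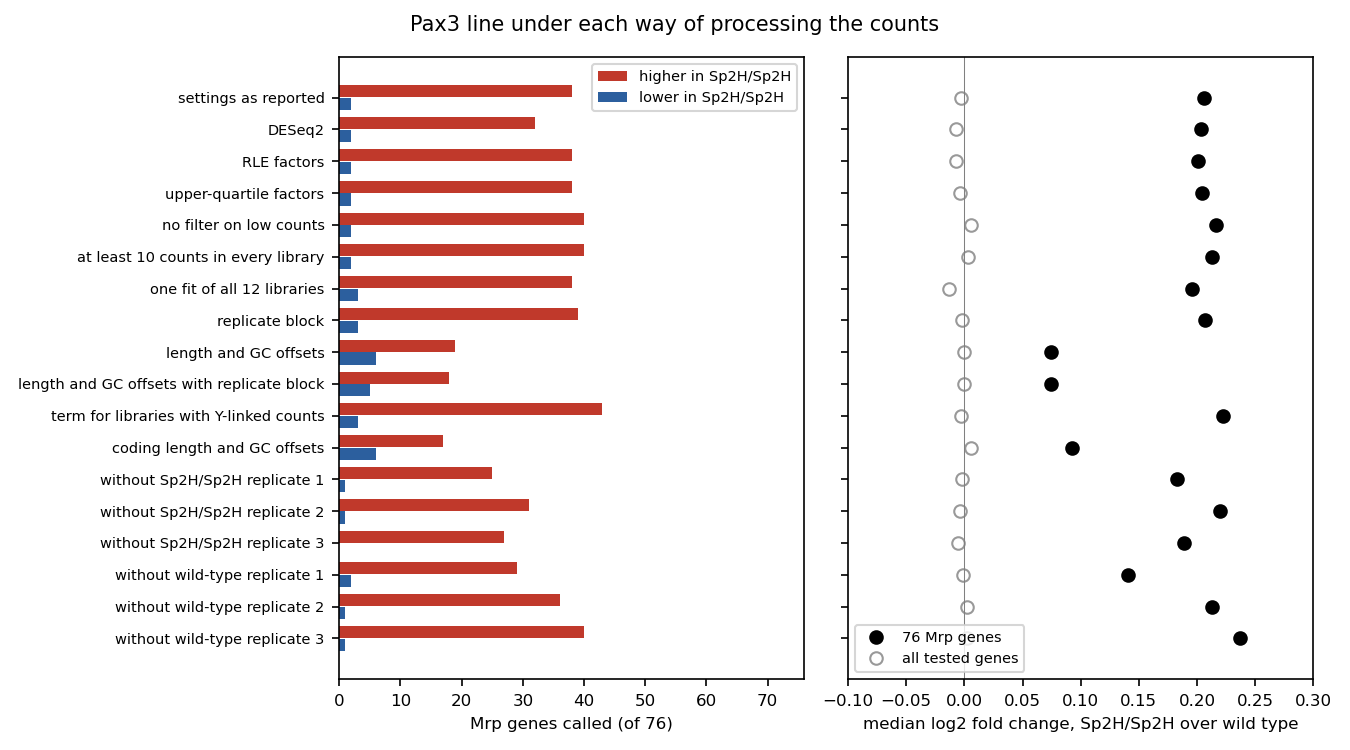
Number of the 76 Mrp genes called higher or lower in Pax3 Sp2H/Sp2H (left, x axis from 0) and median log2 fold change of the Mrp genes and of all tested genes (right) under each way of processing the counts (y axis). Calls higher range from 17 to 43, with the lowest 3 values from the fits with offsets for length and GC.

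Other genes that serve mitochondrial translation were read from lists of the pathway. Of 5 mitochondrial ribosome proteins without an Mrp symbol, 2 were higher in the Pax3 line, Chchd1 (mS37, 0.44 ± 0.09, adjusted P = 0.000669) and Aurkaip1 (mS38, 0.39 ± 0.07, adjusted P = 8.68e-05, edgeR). Mrp63 and Ict1, which encode mL63 and mL62 of the large subunit, were outside the symbol rule and the lists and were looked at after their values were seen. Mrp63 had 40.2, 32.6 and 36.0 CPM in Pax3 mutants and 19.7, 24.7 and 23.4 in wild types (log2 fold change 0.69 ± 0.09, adjusted P = 5.27e-06, edgeR), and Ict1 rose by 0.21 (adjusted P = 0.036). Among 25 assembly factors of the ribosome 4 were higher, near the 14.0% of all genes, and 1 was lower, against 10.5%. In 14 of the 25 all mutant libraries lay above all wild types and in 0 below, against 20.7% and 18.9% of all genes. Those called higher were led by Mpv17l2 (0.50), Wbscr16 (0.43) and the rRNA methyltransferase gene Mrm1 (0.41). Of 14 translation factors only Tsfm, for the elongation factor EF-Ts, was called (0.37 ± 0.11, adjusted P = 0.0213, edgeR). The median log2 fold change was 0.158 for assembly factors and -0.0342 for translation factors, beside 0.206 for the Mrp genes, and these differences were not tested.

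Of 17 mitochondrial aminoacyl-tRNA synthetase genes 3 were higher and 1 lower in the Pax3 line, among them Fars2 (0.44) and Sars2 (0.22), which is near the share of all genes. The lower one, Lars2, had 109, 146 and 107 CPM in mutants and 253, 527 and 322 in wild types, and in the Carm1 line 1682 to 4576 CPM over 6 libraries. The Lars2 call was close to the threshold (adjusted P = 0.042, edgeR), with a wide spread in Pax3 wild types (mean 367, SD 142). What lies behind the uneven Lars2 counts was not tested. Of 18 genes that copy and express mitochondrial DNA 3 were higher and 2 lower, also near that share, with Slirp, for an RNA-binding protein that stabilises mitochondrial mRNAs, at 1.19 ± 0.12 (adjusted P = 2.86e-06, edgeR). Polrmt, the mitochondrial RNA polymerase, was at 0.23 and Tfb2m, its initiation factor, at -0.30. In the Carm1 line, calls in these lists included Aurkaip1 (0.17), the pseudouridine synthase gene Trub2 (0.29) and Cars2 (-0.37). The mRNAs encoded by mitochondrial DNA were not analysed here.

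Cytosolic ribosomal protein genes and nuclear oxidative phosphorylation genes were also higher in Pax3 mutants, with larger medians. Of 75 cytosolic ribosomal protein genes 49 were higher, with a median of 0.426, led by Rps29 (2.58 ± 0.22, adjusted P = 0.00256, edgeR). Of 73 nuclear oxidative phosphorylation genes 60 were higher, with a median of 0.48, led by Atp5k (2.29 ± 0.10, adjusted P = 1.27e-12, edgeR). Among all genes tested in the Pax3 line 14.0% were higher, and 30.3% in the part with the shortest transcripts. The part of transcript length in these lists was not tested. In both lists the largest changes exceeded the 0.84 of Mrpl14. In the Carm1 line 2 of 74 and 2 of 73 of these genes were called, all of them higher, with medians of -0.0332 and 0.00197. Of all genes tested in that line, 5.49% were higher and 7.83% lower. Markers of several cell types also differed, in lists of 8 genes each, of which those named here had no gene at 0 except the mast cell list. These counts stand beside 14.0% higher and 10.5% lower of all genes in the Pax3 line, and 5.49% and 7.83% in the Carm1 line. In the Pax3 line 5 skeletal muscle markers were lower, with sums of 207 to 244 CPM in mutants and 364 to 427 in wild types, and 3 neuron markers were lower (1492 to 1608 against 1678 to 1795 CPM). There 5 cardiac muscle markers were higher and 1 lower (448 to 542 against 469 to 524 CPM), and 5 neural progenitor markers were higher and 1 lower (1746 to 1864 against 1733 to 1855 CPM). A single hepatocyte marker was lower there (810 to 895 against 971 to 1179 CPM), near the 10.5% of all genes. In the Carm1 line 7 hepatocyte markers were lower (713 to 832 against 1344 to 1635 CPM), as were 6 skeletal muscle (491 to 545 against 655 to 805 CPM), 5 cardiac muscle (478 to 507 against 618 to 665 CPM) and 5 neuron markers (1504 to 1534 against 1677 to 1784 CPM). There 5 erythroid markers were lower and 1 higher (7484 to 8827 against 5290 to 9345 CPM). All 8 neural progenitor markers were higher in the Carm1 line (1830 to 1940 against 1517 to 1561 CPM), as were 4 of the 5 mast cell markers tested (67.8 to 69.3 against 49.4 to 52.1 CPM), with 1 mast cell marker at 0. The part of these cell types in the Mrp values was not tested.

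Head-to-head neighbours like those of the Mrps11 and Mrpl46 pair were counted for the other Mrp genes. Of the 61 Mrp genes with a promoter window, 16 (26.2%) had a gene on the other strand that started upstream within 500 bases, against 6.53% of the 12640 genes with a window. Of the 14 neighbours that are not Mrp genes, 3 were higher and 0 lower in Pax3 mutants by edgeR, too few to set apart from the 14.0% and 10.5% of all genes. Mrpl2 (uL2m) and Klc4, a kinesin light chain gene, had log2 fold changes of 0.39 and 0.38 with starts 149 bases apart. Mrps12 (uS12m) was at 0.43 and its neighbour Sars2, the mitochondrial seryl-tRNA synthetase gene, at 0.22. Mrpl49 (mL49) was at 0.22 and its neighbour Fau, which encodes a cytosolic ribosomal protein, at 0.67. The other neighbours outside the set were not called, as for Mrpl27 (0.50) with Eme1 (0.03) and Mrps18c (bS18m, 0.47) with Helq (-0.02). Among the Mrp genes with a window, 31 were called higher in Pax3 mutants and 30 were not. The ETS motif was present in 12 and 9 of these, the E-box in 4 and 0, the YY1 motif in 3 and 2 and the NRF1 palindrome in 1 and 2, and these differences were not tested.

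Levels between genes were compared per kilobase of annotated transcript, as the mean CPM per kb over the 12 libraries. Mrpl52 (mL52) was the highest with 117 ± 15.4 CPM per kb (SD over the 12 libraries of both lines), followed by Mrps21 (bS21m) with 102 ± 15.3 and Mrpl30 (uL30m) with 72.5 ± 5.77. The third place differed between groups, since in Carm1 wild types Mrpl33 (76.02) and in Pax3 wild types Mrpl34 (74.03) lay above Mrpl30 (74.6 and 66.3). Mrpl52 and Mrps21 lay within each other's spread, whereas Mrpl30 had 61.8 to 79.5 CPM per kb and Mrps21 70.2 to 118, so these overlapped in single libraries. The lowest were Mrpl47 (uL29m) with 5.11 ± 0.352, Mrpl35 (bL35m) with 5.49 ± 1.21 and Mrps25 with 5.91 ± 0.549 CPM per kb, and their ranges over the libraries overlapped. The lowest genes differed between groups. In Carm1 wild types Mrpl47 (4.82) was lowest, and Mrps35 (5.64) and Mrpl17 (5.71) lay below Mrpl35 (6.54). In Pax3 wild types Mrpl35 (4.42) was lowest, and Mrpl48 (5.29) lay just below Mrps25 (5.34). Mrpl47, Mrpl35 and Mrps25 have long annotated transcripts (3364, 3721 and 6073 nt), so their rank depends on the annotation.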

How the data were processed

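Whole E12.5 embryos were homogenised, polyA libraries were sequenced in pairs of reads by a commercial provider, and the authors aligned reads to mm10 with STAR and assigned them to genes with featureCounts. Per gene symbol, the deposited files hold raw counts without any normalization. Versions, annotation, strand setting and the treatment of multi-mapping reads are not given in the sources used here. No column of per-sample values was left unused (0).

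From these counts, edgeR 4.0.16 (R 4.3.3) was run on each line separately, with filterByExpr, TMM factors and its robust quasi-likelihood test. A gene was called at a Benjamini-Hochberg adjusted P below 0.05 over all genes tested. The interaction used all 12 libraries. The study's methods name DESeq2, which was run as an alternative (1.42.0). CPM values are scaled by TMM factors. With 3 embryos per group, P values set the difference between groups against the spread between embryos of a group. Lengths, GC content and positions came from GENCODE M21, with the lower median over protein-coding transcripts as transcript length. Of the gene symbols, 21777 matched it directly, 1297 by an older symbol and 346 not at all.

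Members and gene lists were chosen with earlier results of these data known. Named genes were the 8 with the largest change per direction among those called in each line and by the interaction, genes called in both lines, the 3 highest and 3 lowest per kb, and up to 3 per related list. Alternatives were DESeq2, other scaling factors (RLE, upper quartile), no filter or at least 10 counts in every library, blocking on the replicate number, 1 joint fit of the 12 libraries, offsets for length and GC (natural splines with 5 degrees of freedom), a term for libraries with at least 100 Y-linked counts, and leaving out each library. The scripts were tested on simulated counts.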

Additional observations from a re-analysis of the deposited data

Results flagged for a closer look

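The change of Mrp genes differed between the lines by the interaction test (edgeR, FDR adjusted P below 0.05). The log2 fold change was smaller in the Carm1 line for 24 genes and larger for 2, against 10.5% and 8.65% of all genes tested. With transcript-length and GC offsets the counts were 8 and 6, near the 7.60% and 9.50% of all genes in that fit. With coding-length offsets they were 11 and 6, against 7.49% and 9.43%. Smaller and larger refer here to the signed log2 fold change and not to its size. Genes with the smaller value were Mrpl14 (-0.89), Mrps24 (-0.62), Mrps14 (-0.61), Mrps36 (-0.60), Mrps28 (-0.59), Mrpl46 (-0.56), Mrpl54 (-0.51) and Mrpl27 (-0.49), each value being the Carm1 line minus the Pax3 line. Genes with the larger value were Mrps27 (0.30) and Mrps2 (0.28), both called lower in the Pax3 line (-0.21 and -0.23). Neither was called in the Carm1 line (0.07 and 0.04). Of all the genes named here, Mrpl14, Mrps14, Mrps24 and Mrpl46 were called under all 21 alternatives. With transcript-length and GC offsets they were at -0.52, -0.72, -0.37 and -0.38, so Mrpl14 did not lead in that fit. With coding-length offsets Mrpl14 was at -0.56 and Mrps14 at -0.54. Mrpl54 and Mrps36 lost their calls with either kind of length and GC offset, and Mrpl27 and Mrps28 with transcript-length offsets. Mrps2 lost its interaction call in 8 of the 21 alternatives (adjusted P up to 0.104) and Mrps27 in 4 (up to 0.089), all of them fits without 1 library. No test for single outlying libraries was run.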

How the results depend on the processing

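In the Pax3 line, transcript-length and GC offsets gave 19 Mrp genes higher, 6 lower and a median of 0.0742, with a replicate block added 18, 5 and 0.0749, and coding-length offsets (added after seeing the data) 17, 6 and 0.0922, and Mrps34 turned to -0.17, -0.16 and -0.0913 in these fits. Leaving out 1 library gave 25 to 40 higher, 0 to 2 lower and medians of 0.141 to 0.237. In the Carm1 line, DESeq2 gave 0 higher, both transcript-length fits 3 higher and 1 lower, coding-length offsets 4 and 1 (all below the share of all genes in these fits), the term for Y-linked counts 2 higher, and leaving out 1 library 0 to 2 higher and 0 to 1 lower, with 0 higher without Carm1 KO/KO replicate 1 or wild-type replicate 2. For the interaction, offsets gave 6 larger and 8 smaller, coding-length offsets 6 and 11, and leaving out 1 library 0 to 2 larger and 17 to 28 smaller, with 0 larger without Carm1 KO/KO replicate 3, Carm1 wild-type replicate 1 or Pax3 Sp2H/Sp2H replicate 3. The cause of the changes with the offsets was not tested. All other values of these counts and medians were within 1.5 times the reported count, or 1 SD for medians. A single fit of all libraries is already the fit of the interaction, and offsets with a block were not run for it.

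Replicate numbers are shared between groups, but same-numbered libraries did not deviate together in every pair, at r of -0.0411, 0.000822 and -0.042 in the Carm1 line and 0.133, -0.0916 and 0.227 in the Pax3 line, so the numbers were not taken as pairs. With the replicate block 39 Mrp genes were higher and 3 lower in the Pax3 line, 1 higher and 0 lower in the Carm1 line, and 25 smaller and 2 larger by the interaction. The depth of 17183344 to 23518692 counts per library and 3 embryos per group limit the size of change that can be called.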

Other observations

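Wild-type levels of 3 Mrp genes, chosen after their values were seen, are set side by side between the lines with no test, since strain and colony differ and CPM values were scaled within each line. Mrpl54 had 34.5, 34.2 and 31.7 CPM in Carm1 wild types and 22.6, 24.9 and 27.2 in Pax3 wild types, whereas Pax3 Sp2H/Sp2H libraries had 36.0 to 40.4. Mrps14 had 26.3, 25.8 and 29.8 CPM in Carm1 wild types, between the Pax3 wild types (19.1 to 21.9) and the Pax3 Sp2H/Sp2H libraries (30.5 to 31.3). Mrps2 went the other way, with 36.1, 35.2 and 40.2 CPM in Carm1 wild types, 49.4 to 53.8 in Pax3 wild types and 43.0 to 46.0 in Pax3 Sp2H/Sp2H libraries.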
